A study of Homo sapiens with 12 samples.

Results

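The aminoacyl-tRNA synthetases described here are 35 genes, 19 whose enzymes work in the cytosol and 16 whose enzymes work in mitochondria, out of 60666 gene IDs in the deposited count table. They were taken by name, the cytosolic ones as the genes ending in 1 together with EPRS1, FARSA and FARSB and the mitochondrial ones as those ending in 2. All 35 were found under 1 Ensembl ID each and all 35 passed the filter on low counts that left 23493 genes for testing. RNA was sequenced after ribosomal RNA depletion from KMS-11, KMS-12 and RPMI8226, established human lines of multiple myeloma that the labels all give as wild type. Each line was treated with 1 µM JQ1, an inhibitor of the bromodomains of BET proteins, and compared with the same volume of the solvent DMSO. The design text gives 72 h of treatment and writes the first line as KMS-111, where the sample labels have KMS-11. There were 2 libraries in each of the 6 groups and 12 in all, and the labels do not say whether the 2 came from separate cultures, so p-values measure only the spread between these libraries.

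Each synthetase joins an amino acid to the tRNAs that read its codons, and the charged tRNAs feed the ribosome. Most amino acids have a separate enzyme for the cytosol and for mitochondria, both encoded in the nucleus, while the GARS1 and KARS1 genes supply both compartments. Several cytosolic enzymes sit with scaffold proteins in the multisynthetase complex, and plasma cells, from which myeloma arises, are known for making large amounts of secreted protein. When amino acids run short, uncharged tRNA activates the kinase GCN2 (EIF2AK4), translation of the transcription factor ATF4 goes up, and ATF4 is known to bind C/EBP-ATF response elements at amino acid transporters, biosynthetic enzymes and a number of cytosolic synthetase genes.

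Libraries held 15424512 to 27366499 counts, and a floor of 3 counts, the most that 0 reads allow, was 0.107 to 0.178 CPM (counts scaled by the TMM-adjusted library size). Plasma cell markers were present in every library (9 of 9 with reads), and their summed level was lower with JQ1 in KMS-11 (3240 and 4560 CPM, against 7470 and 8070 CPM with DMSO) and RPMI8226 (3390 and 3300 CPM, against 5940 and 4900 CPM with DMSO). In KMS-12 it was higher with JQ1 (4100 and 4060 CPM, against 2510 and 2550 CPM with DMSO). Single markers moved both ways. In KMS-12 both JQ1 libraries lay above both DMSO libraries for XBP1, IRF4, PRDM1 and CD38. For TNFRSF17, MZB1, JCHAIN and SLAMF7 they lay below, and for SDC1 the groups overlapped. PRDM1 was also higher with JQ1 in KMS-11 and RPMI8226, and SDC1 in RPMI8226, although the sums were lower. The T and NK cell list summed to at most 10.9 CPM and the myeloid list to at most 3.38 CPM. The stromal and epithelial list summed to 2780 and 3120 CPM in KMS-11 with JQ1, against 506 and 629 CPM with DMSO. Nearly all of it was VIM, at 2770 and 3110 CPM with JQ1 and 468 and 588 CPM with DMSO, while COL1A1 stayed at or under 0.938 CPM in all 12 libraries; the part of these markers in the results was not tested. CCND1, the translocation target used to check the KMS-12 label, stood at 317 to 620 CPM there and at most 30.9 CPM in the other lines. HEXIM1, often used as a readout of BET inhibition, measured 88.2 to 198 CPM in the JQ1 libraries and 19.9 to 24.6 CPM in the DMSO libraries.

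Calls below are edgeR quasi-likelihood tests at a Benjamini-Hochberg adjusted p under 0.05 over all genes tested. JQ1 changed a large part of the transcriptome, so a call on 1 gene is common. Of the genes tested 49% were called in the average of the lines (22.3% higher, 26.7% lower). In KMS-11 it was 38.5% (17.3% higher, 21.2% lower), in KMS-12 46% (20.2% higher, 25.7% lower) and in RPMI8226 32.2% (13.6% higher, 18.6% lower). A pair of features of the libraries bears on the values. The long non-coding RNA MALAT1 took 14.5% to 16.5% of KMS-11 counts with JQ1 and 3.61% to 3.98% with DMSO. In KMS-12 it took 25.7% and 25.8% with JQ1 and 8.06% and 9.01% with DMSO. TMM scaling trims such extreme genes when it sets its factors, and scaling by library size alone moved the all-gene median of the log2 fold change by -0.35 for the average and by -0.77 for KMS-12, with smaller moves for KMS-11 (-0.26) and RPMI8226 (-0.03). The share of calls that were higher was 45.6% in the average and 17% under that scaling, 45% and 23.8% in KMS-11, and 44% and 7.49% in KMS-12. With library sizes counted without MALAT1 it was 29.8% in the average and 16.6% in KMS-12. The second feature is that the 2 KMS-11 JQ1 libraries differed: 15 of 19 cytosolic synthetases were lower in replicate 2 than in replicate 1 (median log2 difference -0.37), as were 8 of 16 mitochondrial ones (median 0.03) and 45.9% of all genes. Changes are in relative RNA amounts, in which fewer cells of a kind and less RNA per cell cannot be told apart.

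More cytosolic than mitochondrial synthetases were called lower with JQ1, a difference in counts that was not itself tested. In the average of the lines 12 of 19 cytosolic members were called lower, 2 higher and 5 neither, with a median log2 fold change of -0.45, against -0.10 for all genes tested. Of the 16 mitochondrial members 4 were called lower, 4 higher and 8 neither, with a median of 0.03. The cytosolic share called lower thus stood above the 26.7% of all genes, and the mitochondrial share was close to it. Of the 22 calls, 18 held with each library left out in turn, and AARS1, CARS1, WARS1 and WARS2 were lost in at least 1 case.

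By line, 9 cytosolic members were called lower and 2 higher in KMS-11 (median -0.45, all genes 0.00), where 21.2% of all genes were lower. KMS-12 had 10 lower and 2 higher (median -0.46, all genes -0.06), beside 25.7% of all genes lower, and RPMI8226 had 6 lower and 2 higher (median -0.19, all genes -0.03), beside 18.6%. For the mitochondrial members the counts were 2 lower and 2 higher in KMS-11 (median -0.05), 5 and 4 in KMS-12 (median -0.11), and 2 and 1 in RPMI8226 (median 0.12). With library size alone the cytosolic medians were -0.71 (KMS-11) and -1.23 (KMS-12) and the mitochondrial ones -0.31 (KMS-11) and -0.88 (KMS-12). Without KMS-11 JQ1 replicate 1 the KMS-11 cytosolic median was -0.71, and without replicate 2 it was -0.30. Under library size alone the higher calls shrank and the mitochondrial members of KMS-12 were mostly lower (13 of 16), so the split of the mitochondrial genes depends on the scaling. The KMS-11 count of 9 cytosolic falls was 5 without either DMSO replicate of that line. The RPMI8226 count of 6 was 2 without JQ1 replicate 1 and 3 without DMSO replicate 2. The 5 mitochondrial falls in KMS-12 were 3 without JQ1 replicate 1, JQ1 replicate 2 or DMSO replicate 2.

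Across all 3 lines IARS1, LARS1 and SARS1 were called lower in each, as was the mitochondrial YARS2, and HARS1 and RARS1 were called higher in each. Among all genes 6.37% were called lower in all 3 lines and 6.04% higher. In 10 of 19 cytosolic members and 2 of 16 mitochondrial members both JQ1 libraries lay below both DMSO libraries in every line, a pattern that 13.7% of all genes tested showed. The reverse pattern was seen in 2 cytosolic and 2 mitochondrial members and in 12.6% of all genes. No member was called in opposite directions in 2 lines, against 5.06% of all genes.

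**Figure D1:**
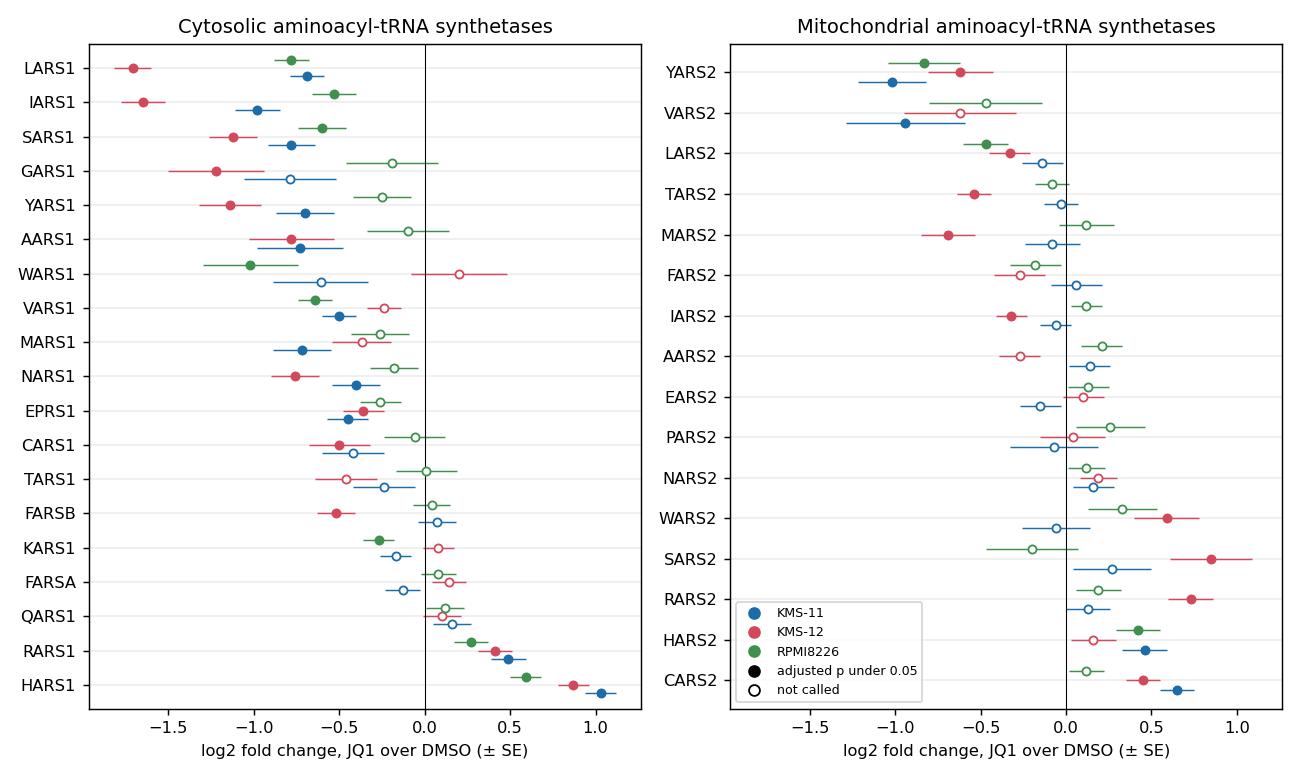
Log2 fold change of JQ1 over DMSO with its standard error for each cytosolic (left) and mitochondrial (right) synthetase in KMS-11, KMS-12 and RPMI8226; filled points are called at an adjusted p under 0.05. Most cytosolic points lie left of 0 with LARS1 and IARS1 in KMS-12 farthest out (-1.71 and -1.65), and the mitochondrial points spread to both sides.

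The summed level of the 19 cytosolic genes shows the same in each library. It was 4181 and 3007 CPM with JQ1 and 5292 and 5113 CPM with DMSO in KMS-11, 3128 and 3446 CPM with JQ1 and 5094 and 5172 CPM with DMSO in KMS-12, and 4683 and 5325 CPM with JQ1 and 5889 and 6207 CPM with DMSO in RPMI8226. Both JQ1 libraries were below both DMSO libraries in each line. The 16 mitochondrial genes together gave 506 and 534 CPM with JQ1 and 499 and 503 CPM with DMSO in KMS-11, 590 and 571 CPM with JQ1 and 596 and 600 CPM with DMSO in KMS-12, and 625 and 618 CPM with JQ1 and 581 and 599 CPM with DMSO in RPMI8226. The mitochondrial sums were slightly higher with JQ1 in KMS-11 and RPMI8226 and slightly lower in KMS-12, without overlap in any line. That order depends on the scaling: as a share of all counts the mitochondrial genes were lower with JQ1 in KMS-11 (0.0449% and 0.0474%, against 0.0547% and 0.0518% with DMSO) and clearly lower in KMS-12 (0.0427% and 0.041%, against 0.0732% and 0.0737% with DMSO).

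**Figure D2:**
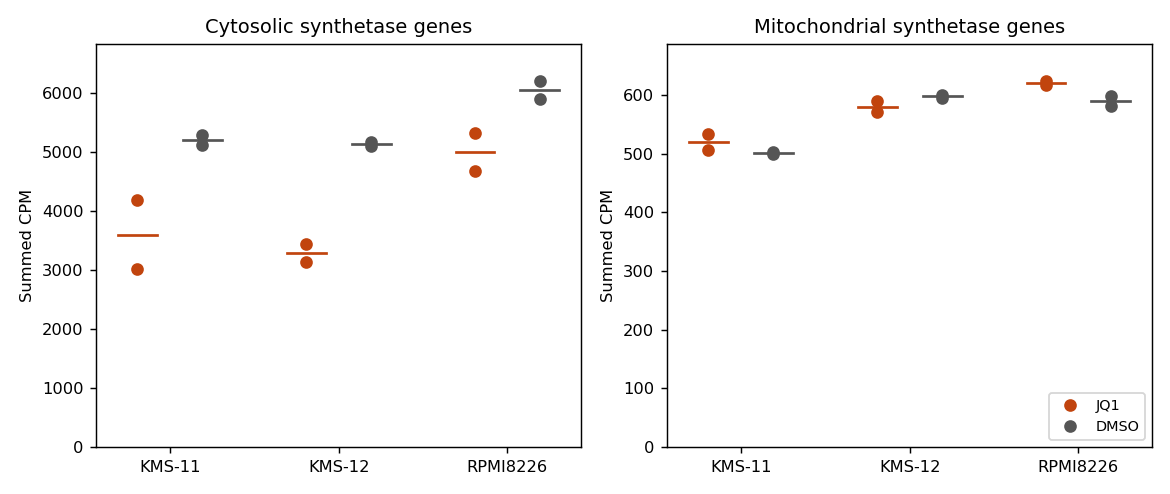
Summed CPM of the cytosolic (left) and mitochondrial (right) synthetase genes in each library, with a bar at the mean of 2; in each line the JQ1 libraries stand left of the DMSO libraries. The cytosolic sum ran from 3007 to 5325 CPM with JQ1 and from 5094 to 6207 CPM with DMSO, while the mitochondrial sums all lay between 499 and 625 CPM.

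The compartments also differed in level with DMSO alone. Per kb of exon the DMSO level of the cytosolic members had a median of 36.9 CPM per kb (KMS-11), 36.3 (KMS-12) and 46.8 (RPMI8226), and that of the mitochondrial members 6.38, 7.08 and 5.86 CPM per kb in the same lines. GARS1 was highest in all 3 lines at 162 ± 17.0, 146 ± 0.707 and 194 ± 5.66 CPM per kb (SD, n = 2 each). In KMS-12 IARS1 came next at 134 ± 6.36 CPM per kb and in the other lines AARS1, at 109 ± 8.49 in KMS-11 and 172 ± 4.24 in RPMI8226. VARS2 was lowest throughout, at 0.364, 0.422 and 0.488 CPM per kb. Of its exon length 22% is shared on the same strand with GTF2H4.

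Leucyl- and isoleucyl-tRNA synthetase, both class I enzymes of the multisynthetase complex, fell the most in the average of the lines and in KMS-12. The largest fall was that of YARS2 in KMS-11 (log2 fold change -1.02) and that of WARS1 in RPMI8226 (-1.02). LARS1 (ENSG00000133706, chr5:146113038-146182660, minus strand, GENCODE 29 on GRCh38 as for all genes below), whose protein is also known as a leucine sensor for mTORC1, had 315 and 263 CPM with JQ1 and 485 and 448 CPM with DMSO in KMS-11, 54.1 and 53.4 CPM with JQ1 and 180 and 172 CPM with DMSO in KMS-12, and 209 and 233 CPM with JQ1 and 359 and 400 CPM with DMSO in RPMI8226. Every JQ1 library was below both DMSO libraries of its line, and the gap was widest in KMS-12. The log2 fold change of LARS1 was -1.06 ± 0.06 (SE) over the lines (adjusted p = 1.44e-10), -0.69 ± 0.10 in KMS-11, -1.71 ± 0.11 in KMS-12 and, for RPMI8226, -0.78 ± 0.10. IARS1 (ENSG00000196305, chr9:92210207-92293756, minus strand) had 275 and 212 CPM with JQ1 and 502 and 462 CPM with DMSO in KMS-11, 303 and 332 CPM with JQ1 and 965 and 1030 CPM with DMSO in KMS-12, and 231 and 288 CPM with JQ1 and 352 and 396 CPM with DMSO in RPMI8226. The groups did not overlap in any line, and with JQ1 the 3 lines came to similar levels although KMS-12 had the highest level with DMSO. Its log2 fold change was -1.05 ± 0.07 in the average (adjusted p = 2.20e-09), -0.98 ± 0.13 in KMS-11, -1.65 ± 0.13 in KMS-12 and, for RPMI8226, -0.53 ± 0.13 (adjusted p = 0.00410). The RPMI8226 call on IARS1 was lost without JQ1 replicate 1 (-0.38, adjusted p = 0.0785) and without DMSO replicate 2 (-0.44, adjusted p = 0.0571).

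Both genes differed between the lines. The F test of any difference in response gave an adjusted p of 6.31e-05 for LARS1 and 0.00045 for IARS1, and 30.1% of all genes were called by it. The fall of LARS1 in KMS-12 was larger than in KMS-11 by -1.02 ± 0.15 (log2, adjusted p = 7.94e-05), and the RPMI8226 response minus that of KMS-12 was 0.93 ± 0.15 (adjusted p = 0.000165). For IARS1 the KMS-12 response minus that of KMS-11 was -0.67 ± 0.18 (adjusted p = 0.0133), and RPMI8226 minus KMS-12 was 1.12 ± 0.18 (adjusted p = 0.000188). The first of these IARS1 calls was lost without KMS-11 JQ1 replicate 1 (-0.47, adjusted p = 0.0884), KMS-11 DMSO replicate 2 (-0.62, adjusted p = 0.0583), KMS-12 JQ1 replicate 1 (-0.60, adjusted p = 0.0747) or KMS-12 DMSO replicate 2 (-0.62, adjusted p = 0.0600). Among all genes 20% were called for KMS-12 against KMS-11 (10.1% higher, 9.87% lower) and 23.4% for RPMI8226 against KMS-12 (12.3% higher, 11.1% lower).

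SARS1 (ENSG00000031698, chr1:109213918-109238169, plus strand), seryl-tRNA synthetase, which also charges the selenocysteine tRNA, had 87.8 and 60.6 CPM with JQ1 and 128 and 127 CPM with DMSO in KMS-11, 112 and 128 CPM with JQ1 and 263 and 261 CPM with DMSO in KMS-12, and 85.7 and 104 CPM with JQ1 and 138 and 149 CPM with DMSO in RPMI8226. The groups were apart in every line. Its log2 fold change was -0.83 ± 0.08 in the average (adjusted p = 4.68e-07), -0.78 ± 0.14 in KMS-11, -1.12 ± 0.14 in KMS-12 and, for RPMI8226, -0.60 ± 0.14, where without JQ1 replicate 1 it was -0.46 (adjusted p = 0.0631). GARS1 (chr7:30594681-30634033, plus strand), glycyl-tRNA synthetase of both compartments, had 518 and 260 CPM with JQ1 and 624 and 722 CPM with DMSO in KMS-11, 252 and 268 CPM with JQ1 and 605 and 608 CPM with DMSO in KMS-12, and 639 and 779 CPM with JQ1 and 789 and 823 CPM with DMSO in RPMI8226. KMS-12 showed a clear gap, the KMS-11 JQ1 libraries were far apart from each other, and in RPMI8226 the higher JQ1 library nearly reached the DMSO level. The average log2 fold change of GARS1 was -0.73 ± 0.16 (adjusted p = 0.00512), and in KMS-12 it was -1.22 ± 0.28 (adjusted p = 0.00746). In KMS-11 its value was -0.79 ± 0.27 (adjusted p = 0.0542), and it was -1.37 without JQ1 replicate 1 and -0.38 without JQ1 replicate 2. There it was called lower by DESeq2 (-0.80, adjusted p = 0.0237) and limma-voom (-0.85, adjusted p = 0.0312). EdgeR at a mean of at least 10 CPM also called it (-0.82, adjusted p = 0.022), while RLE scaling and the replicate blocks did not. In RPMI8226 it was -0.19 ± 0.27 (adjusted p = 0.667).

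YARS1 (chr1:32775237-32818153, minus strand), tyrosyl-tRNA synthetase, had 254 and 153 CPM with JQ1 and 320 and 340 CPM with DMSO in KMS-11, 129 and 149 CPM with JQ1 and 304 and 308 CPM with DMSO in KMS-12, and 376 and 386 CPM with JQ1 and 452 and 453 CPM with DMSO in RPMI8226. The groups were apart in all lines. YARS1 fell by 0.69 ± 0.10 in the average (log2, adjusted p = 8.79e-05) and by 1.14 ± 0.18 in KMS-12 (adjusted p = 0.000195). In KMS-11 it was -0.70 ± 0.17 (adjusted p = 0.00704), with -1.11 and -0.38 without JQ1 replicate 1 and 2 and with the call lost without DMSO replicate 1 (-0.74, adjusted p = 0.0619) or 2 (-0.63, adjusted p = 0.116). In RPMI8226 it was -0.25 ± 0.17 (adjusted p = 0.315). Its mitochondrial partner YARS2 (ENSG00000139131, chr12:32727490-32755902, minus strand) was the mitochondrial member with the largest fall. YARS2 had 5.95 and 8.47 CPM with JQ1 and 15.8 and 13.4 CPM with DMSO in KMS-11, 12.4 and 13.9 CPM with JQ1 and 18.7 and 21.6 CPM with DMSO in KMS-12, and 4.41 and 5.94 CPM with JQ1 and 9.18 and 9.14 CPM with DMSO in RPMI8226. The groups were again apart in each line. Its log2 fold change was -0.82 ± 0.12 in the average (adjusted p = 9.44e-06), -1.02 ± 0.20 in KMS-11, -0.62 ± 0.19 in KMS-12 and, for RPMI8226, -0.83 ± 0.21. The KMS-12 call on YARS2 was lost without JQ1 replicate 1 (-0.53, adjusted p = 0.109) or DMSO replicate 2 (-0.51, adjusted p = 0.115), and the RPMI8226 call without JQ1 replicate 1 (-0.62, adjusted p = 0.0899).

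The other cytosolic members called lower in the average had smaller values: AARS1 -0.54 ± 0.14, WARS1 -0.48 ± 0.16, VARS1 -0.46 ± 0.06, MARS1 -0.45 ± 0.10, NARS1 -0.45 ± 0.08, EPRS1 -0.36 ± 0.07 and CARS1 -0.32 ± 0.10 (log2). VARS1, valyl-tRNA synthetase, fell in KMS-11 (-0.50 ± 0.10, adjusted p = 0.000415) and RPMI8226 (-0.64 ± 0.10, adjusted p = 6.38e-05) and had -0.24 ± 0.10 in KMS-12 (adjusted p = 0.0514). EPRS1, the fused glutamyl- and prolyl-tRNA synthetase, kept its call in the average with each library left out (-0.42 to -0.31). NARS1, asparaginyl-tRNA synthetase, fell in KMS-12 (-0.76 ± 0.14, adjusted p = 0.00029). In KMS-11, 4 of these turned on which JQ1 library was used, with values without replicate 1 and without replicate 2 of -1.28 and -0.34 for AARS1, -1.13 and -0.40 for MARS1, -0.71 and -0.15 for NARS1, and -0.84 and -0.10 for CARS1. The average of AARS1 was not called without KMS-11 DMSO replicate 1 (-0.51, adjusted p = 0.0647) or 2 (-0.56, adjusted p = 0.0526). That of CARS1 was lost with any of 5 libraries left out, the 2 KMS-11 DMSO replicates, KMS-12 JQ1 replicate 1, RPMI8226 JQ1 replicate 1 and RPMI8226 DMSO replicate 2, with values of -0.33, -0.31, -0.29, -0.31 and -0.31.

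WARS1, tryptophanyl-tRNA synthetase and a gene known to be induced by interferon gamma, had the widest spread of responses among the cytosolic members. It had 192 and 137 CPM with JQ1 and 305 and 196 CPM with DMSO in KMS-11, 674 and 805 CPM with JQ1 and 628 and 658 CPM with DMSO in KMS-12, and 141 and 215 CPM with JQ1 and 331 and 394 CPM with DMSO in RPMI8226. The libraries of a group were far apart other than in KMS-12 with DMSO. WARS1 fell by 1.02 ± 0.28 in RPMI8226 (log2, adjusted p = 0.0282), with -0.61 ± 0.28 in KMS-11 (adjusted p = 0.136) and 0.20 ± 0.28 in KMS-12 (adjusted p = 0.618), and the difference between lines was not called by edgeR (adjusted p = 0.110), while DESeq2 called it (adjusted p = 0.0371), as did edgeR without RPMI8226 JQ1 replicate 2 (adjusted p = 0.0345). Without RPMI8226 JQ1 replicate 1, DMSO replicate 1 or DMSO replicate 2 the RPMI8226 values were -0.75, -1.14 and -0.89 and not called (adjusted p = 0.108, 0.0582 and 0.122), and the call in the average was lost with any of 8 libraries left out, with values from -0.52 to -0.36. WARS1 was chosen for this after its values were seen.

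**Figure D3:**
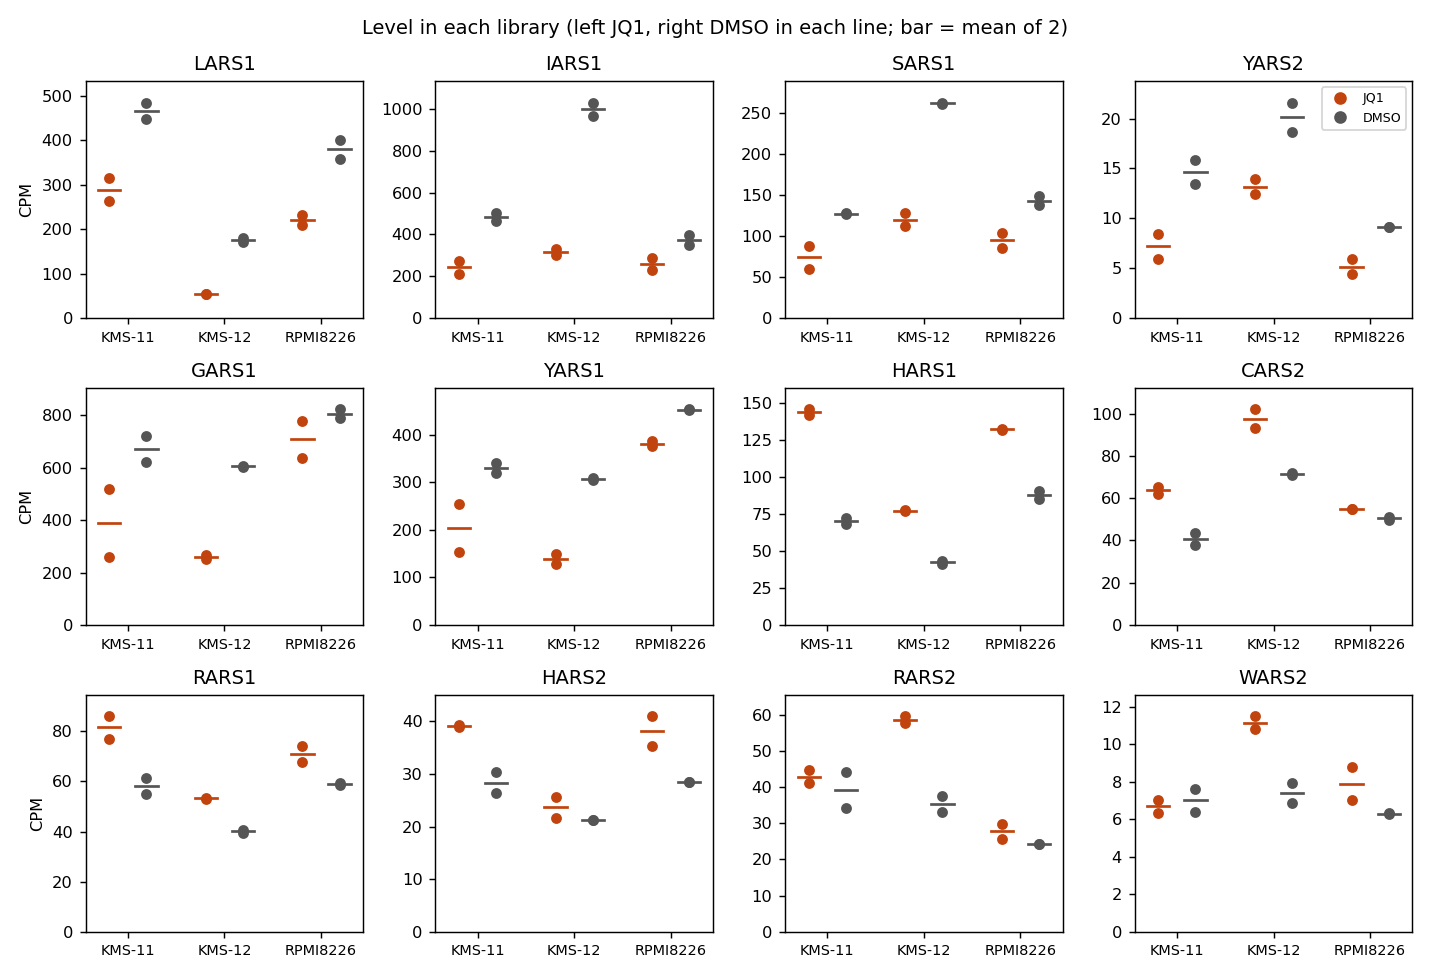
CPM in each library for the 6 called members with the largest falls and the 6 with the largest rises in the average of the lines, JQ1 left of DMSO in each line, with a bar at the mean of 2 and axes from 0. LARS1, IARS1, SARS1, YARS2 and YARS1 sit lower and HARS1 and RARS1 higher with JQ1 in all 3 lines.

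Histidyl- and arginyl-tRNA synthetases went the other way. HARS1 (ENSG00000170445, chr5:140673904-140691862, minus strand) had 146 and 142 CPM with JQ1 and 72.4 and 68.4 CPM with DMSO in KMS-11, 77.8 and 77.1 CPM with JQ1 and 41.4 and 43.3 CPM with DMSO in KMS-12, and 133 and 132 CPM with JQ1 and 85.0 and 90.6 CPM with DMSO in RPMI8226. Replicates were close together and the groups far apart in each line. HARS1 rose by 0.83 ± 0.05 in the average (log2, adjusted p = 3.41e-10, 0.48 under library size alone), 1.03 ± 0.09 in KMS-11 (adjusted p = 7.41e-08), 0.87 ± 0.09 in KMS-12 (adjusted p = 3.9e-07, with 0.10 and no call under library size alone) and 0.59 ± 0.09 in RPMI8226 (adjusted p = 5.94e-05). RARS1 (chr5:168486445-168519299, plus strand), arginyl-tRNA synthetase of the multisynthetase complex, had 77.1 and 86.0 CPM with JQ1 and 55.0 and 61.3 CPM with DMSO in KMS-11, 53.0 and 53.5 CPM with JQ1 and 40.8 and 39.5 CPM with DMSO in KMS-12, and 67.8 and 74.1 CPM with JQ1 and 58.5 and 59.2 CPM with DMSO in RPMI8226. The groups were apart in each line by less than for HARS1. RARS1 rose by 0.39 ± 0.06 in the average (adjusted p = 1.65e-05, 0.04 without a call under library size alone), and in KMS-12 by 0.41 ± 0.10, a sign that flipped to -0.36 with library size alone and to -0.06 with library size without MALAT1. The RPMI8226 call (0.27 ± 0.10, adjusted p = 0.0448) was lost without any 1 library of KMS-12 or RPMI8226, with values from 0.21 to 0.33.

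HARS1 and HARS2, the cytosolic and mitochondrial histidine enzymes, lie head to head: their RefSeq start sites are 85 bases apart on opposite strands and their promoter windows overlap by 184 bases. HARS2 (ENSG00000112855, chr5:140691426-140699318, plus strand) had 39.3 and 39.0 CPM with JQ1 and 26.4 and 30.3 CPM with DMSO in KMS-11, 21.7 and 25.6 CPM with JQ1 and 21.2 and 21.2 CPM with DMSO in KMS-12, and 41.0 and 35.3 CPM with JQ1 and 28.5 and 28.5 CPM with DMSO in RPMI8226. It was higher in every JQ1 library, by little in KMS-12. HARS2 rose by 0.35 ± 0.07 in the average (log2, adjusted p = 0.000607), a change that was 0.00 under library size alone and 0.17 without a call with library size without MALAT1. It was called in KMS-11 (0.46 ± 0.13, adjusted p = 0.00675, with 0.21 and no call under library size alone) and RPMI8226 (0.42 ± 0.13, adjusted p = 0.0156). The RPMI8226 call was lost without JQ1 replicate 1 (0.31, adjusted p = 0.164) or DMSO replicate 1 or 2 (0.42 each, adjusted p = 0.0781 and 0.0779). The exons of the pair overlap by 437 bases on opposite strands, 5.56% of the exon length of HARS1 and 11.7% of that of HARS2. Whether the counting used the strand is not given in the sources used here, so reads in that stretch cannot be told apart. The window of the HARS1 promoter is printed because most of it is shared by both genes. It runs from 250 bases before to 50 after the start site on the minus strand of chr5:140691321-140691620 (RefSeq, GRCh38.p14), and capitals mark both matches to the ETS motif CCGGAAGT on either strand.
HARS1: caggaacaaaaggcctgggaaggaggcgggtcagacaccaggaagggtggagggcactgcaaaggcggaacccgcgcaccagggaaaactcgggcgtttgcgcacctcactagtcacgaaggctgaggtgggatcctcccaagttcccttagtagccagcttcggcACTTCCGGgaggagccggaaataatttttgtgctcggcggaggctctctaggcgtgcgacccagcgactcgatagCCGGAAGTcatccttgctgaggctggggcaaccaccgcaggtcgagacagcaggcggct

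CARS2, RARS2 and WARS2 were the other mitochondrial members called higher in the average. CARS2 (chr13:110641412-110713603, minus strand), mitochondrial cysteinyl-tRNA synthetase, had 65.5 and 61.9 CPM with JQ1 and 43.3 and 38 CPM with DMSO in KMS-11, 102 and 93.3 CPM with JQ1 and 71.2 and 72.0 CPM with DMSO in KMS-12, and 54.8 and 54.8 CPM with JQ1 and 49.5 and 51.3 CPM with DMSO in RPMI8226. All JQ1 libraries were higher than those with DMSO, least in RPMI8226. CARS2 rose by 0.40 ± 0.06 in the average (log2, adjusted p = 8.55e-06, 0.05 without a call under library size alone), by 0.65 ± 0.10 in KMS-11 and by 0.45 ± 0.10 in KMS-12, where the sign flipped to -0.32 with library size alone and -0.02 with library size without MALAT1. RARS2 (chr6:87514378-87590003, minus strand), mitochondrial arginyl-tRNA synthetase, had 41.0 and 44.8 CPM with JQ1 and 34.1 and 44.3 CPM with DMSO in KMS-11, 59.6 and 57.7 CPM with JQ1 and 33.2 and 37.5 CPM with DMSO in KMS-12, and 29.9 and 25.7 CPM with JQ1 and 24.4 and 24.2 CPM with DMSO in RPMI8226. The groups overlapped in KMS-11 and were widest apart in KMS-12. RARS2 rose by 0.35 ± 0.08 in the average (adjusted p = 0.000751, 0.00 under library size alone) and by 0.73 ± 0.13 in KMS-12 (adjusted p = 0.000149, -0.04 under library size alone). WARS2 (chr1:119031216-119140671, minus strand), mitochondrial tryptophanyl-tRNA synthetase, had 7.04 and 6.34 CPM with JQ1 and 6.39 and 7.62 CPM with DMSO in KMS-11, 11.5 and 10.8 CPM with JQ1 and 7.95 and 6.85 CPM with DMSO in KMS-12, and 8.77 and 7.01 CPM with JQ1 and 6.32 and 6.29 CPM with DMSO in RPMI8226. Its groups overlapped in KMS-11 and were apart in the other lines. The call on WARS2 in the average (0.29 ± 0.11, adjusted p = 0.0440) was lost with any of 8 libraries left out, with values from 0.23 to 0.30, and the value was -0.07 under library size alone.

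Among the remaining mitochondrial members VARS2 was called lower (-0.68 ± 0.20, adjusted p = 0.00742), as were LARS2 (-0.31 ± 0.07, adjusted p = 0.00144) and TARS2 (-0.22 ± 0.06, adjusted p = 0.00349). The others, AARS2, EARS2, FARS2, IARS2, MARS2, NARS2, PARS2 and SARS2, had averages between -0.22 and 0.31 and were not called. SARS2 had 6.21 and 7 CPM with JQ1 and 3.74 and 3.57 CPM with DMSO in KMS-12, and it rose there by 0.85 ± 0.24 (log2, adjusted p = 0.00645). The call was lost without JQ1 replicate 2 (0.76, adjusted p = 0.0552), under library size alone (0.08) and with library size without MALAT1 (0.38). Its exons share 46.2% of their length with another gene on the same strand, so how the authors' counting assigned those reads is uncertain. Cytosolic members with no call in the average were FARSA (0.03 ± 0.06), QARS1 (0.12 ± 0.06), KARS1 (-0.12 ± 0.05), FARSB (-0.14 ± 0.06) and TARS1 (-0.23 ± 0.11). FARSA, QARS1 and TARS1 were called in no line in the main edgeR fit. For TARS1 this turned on the fit. In KMS-12 it was called lower by DESeq2 (-0.45, adjusted p = 0.0298) and limma-voom (-0.46, adjusted p = 0.0338). EdgeR called it lower there with no filter beyond 1 read (-0.46, adjusted p = 5.42e-05) or a mean of at least 10 CPM (-0.54, adjusted p = 0.0302).

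Responses differed between the lines for 10 of the 35 members, 5 in each compartment, against 30.1% of all genes, which is a share near the background. FARSB (chr2:222570536-222656337, minus strand), the beta chain of phenylalanyl-tRNA synthetase, had 101 and 122 CPM with JQ1 and 116 and 96.1 CPM with DMSO in KMS-11, 82.6 and 80.2 CPM with JQ1 and 117 and 117 CPM with DMSO in KMS-12, and 91.0 and 101 CPM with JQ1 and 90.2 and 96.9 CPM with DMSO in RPMI8226. The groups overlapped in KMS-11 and RPMI8226 and were apart in KMS-12. FARSB fell by 0.52 ± 0.11 in KMS-12 (log2, adjusted p = 0.00087), and its difference between lines had an adjusted p of 0.0112 (0.0659 without KMS-12 JQ1 replicate 2). FARSA, the alpha chain of the same enzyme, had 0.14 ± 0.10 in KMS-12 (adjusted p = 0.255), and no test compared the chains.

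TARS2 (chr1:150487364-150507609, plus strand), mitochondrial threonyl-tRNA synthetase, had 70.9 and 68.4 CPM with JQ1 and 72.8 and 69.6 CPM with DMSO in KMS-11, 40.8 and 39.3 CPM with JQ1 and 58.1 and 58.5 CPM with DMSO in KMS-12, and 65.8 and 56.3 CPM with JQ1 and 65.8 and 63.4 CPM with DMSO in RPMI8226. Only KMS-12 showed a gap between the groups. TARS2 fell by 0.54 ± 0.10 there (log2, adjusted p = 0.000206), and its difference between lines (adjusted p = 0.0146) was lost without any 1 of the 4 KMS-12 libraries (adjusted p = 0.0524 to 0.0875). MARS2 (chr2:197705369-197708387, plus strand), mitochondrial methionyl-tRNA synthetase, had 22.5 and 22.4 CPM with JQ1 and 26.6 and 20.9 CPM with DMSO in KMS-11, 23.1 and 16.8 CPM with JQ1 and 33.0 and 31.5 CPM with DMSO in KMS-12, and 29.7 and 27.7 CPM with JQ1 and 24.0 and 28.6 CPM with DMSO in RPMI8226. The groups overlapped outside KMS-12. MARS2 fell by 0.69 ± 0.16 in KMS-12 (log2, adjusted p = 0.00152), with a difference between lines at an adjusted p of 0.0213, not called without KMS-12 JQ1 replicate 2, either KMS-12 DMSO replicate, RPMI8226 JQ1 replicate 1 or RPMI8226 DMSO replicate 1 (adjusted p = 0.157, 0.0864, 0.0583, 0.0538 and 0.0653). For CARS2 the responses also differed (adjusted p = 0.0206), with RPMI8226 minus KMS-11 at -0.53 ± 0.14 (adjusted p = 0.0187, not called without KMS-11 JQ1 replicate 1 or RPMI8226 DMSO replicate 2 or under library size alone, at -0.48, -0.50 and -0.29), a contrast that called 11.4% of all genes (6.7% higher, 4.72% lower). That difference between lines was not called without KMS-11 JQ1 replicate 1, either RPMI8226 JQ1 replicate or RPMI8226 DMSO replicate 2 (adjusted p = 0.0596, 0.0530, 0.0528 and 0.0800). LARS1 and IARS1 were the 2 members whose difference between lines was called with every library left out in turn.

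Most amino acids offer a pair of enzymes for a direct comparison within the same libraries. Over 17 pairs, with FARS2 set against both chains and EPRS1 against EARS2 and PARS2, the cytosolic log2 fold change was the lower one in 12 for the average, in 12 each for KMS-11 and KMS-12, and in 11 for RPMI8226. These are descriptions with no test of the difference between partners. The count for the average includes near ties, with differences of -0.01 each for FARSB against FARS2 and TARS1 against TARS2. Serine showed the widest split, with -0.83 for SARS1 and 0.31 for SARS2, followed by isoleucine (-1.05 for IARS1, -0.09 for IARS2), tryptophan (-0.48 for WARS1, 0.29 for WARS2), leucine (-1.06 for LARS1, -0.31 for LARS2) and cysteine (-0.32 for CARS1, 0.40 for CARS2). Tyrosine and valine did not follow: YARS1 had -0.69 and YARS2 -0.82, and VARS1 had -0.46 and VARS2 -0.68. The histidine and arginine pairs were positive on both sides, with 0.83 and 0.35 for HARS1 and HARS2 and 0.39 and 0.35 for RARS1 and RARS2.

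**Figure D4:**
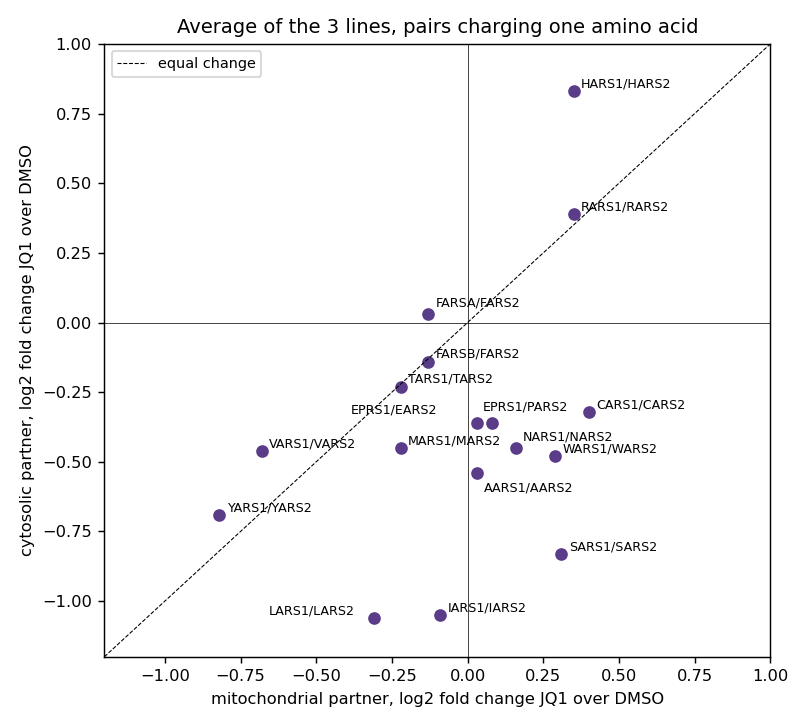
Log2 fold change of JQ1 over DMSO in the average of the 3 lines for each cytosolic gene (vertical axis) against its mitochondrial partner (horizontal axis), with a dashed line of equal change. Of 17 pairs 12 lie below the line, SARS1/SARS2 farthest, with HARS1/HARS2 alone far above it. FARSB/FARS2 and TARS1/TARS2, counted as below, lie almost on it (-0.01 each).

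Cytosolic genes inside and outside the multisynthetase complex had similar counts, with no test between them. Of its 7 synthetases listed here (EPRS1, IARS1, KARS1, LARS1, MARS1, QARS1 and RARS1) 4 were called lower and 1 higher in the average, with a median of -0.36, and of the 12 cytosolic genes outside it 8 and 1, with a median of -0.45. Of the scaffold genes 2 of 3 were called lower. AIMP1 had 57.6 and 61.9 CPM with JQ1 and 93.6 and 78.1 CPM with DMSO in KMS-11, 57.5 and 59.5 CPM with JQ1 and 128 and 129 CPM with DMSO in KMS-12, and 47.2 and 58.1 CPM with JQ1 and 72.5 and 80.3 CPM with DMSO in RPMI8226. AIMP1 was lower with JQ1 in every line, by -0.73 ± 0.07 in the average (log2, adjusted p = 3.98e-08). EEF1E1 had -0.84 ± 0.12 (adjusted p = 8.26e-06) and AIMP2 0.16 ± 0.09 (adjusted p = 0.135). By catalytic class, counting EPRS1 with class I, 8 of 10 cytosolic class I genes were called lower and 1 higher, and 4 of 9 cytosolic class II genes lower and 1 higher. The mitochondrial class I genes had 3 of 9 lower and 3 higher, and the class II genes 1 of 7 lower and 1 higher. Among all genes 26.7% were called lower and 22.3% higher in the average.

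Genes that work beside the synthetases were called in both directions, and most of the rises among them were lost under library size alone. In the average 22.3% of all genes were called higher and 26.7% lower, so calls in both directions are common. Mitochondria make their glutaminyl-tRNA through an amidotransferase and formylate the initiator methionyl-tRNA. MTFMT, the formyltransferase, had 24.3 and 21.7 CPM with JQ1 and 7.90 and 7.53 CPM with DMSO in KMS-11, 19.5 and 23.0 CPM with JQ1 and 11.7 and 13.3 CPM with DMSO in KMS-12, and 32.3 and 31.5 CPM with JQ1 and 12.4 and 13.5 CPM with DMSO in RPMI8226. MTFMT was higher with JQ1 in every library, rising by 1.21 ± 0.09 in the average (log2, adjusted p = 1.75e-09), where the largest rise of a synthetase was 0.83 for HARS1. In KMS-12 the value of MTFMT was 0.77 (0.00 under library size alone), below the 0.87 of HARS1. Of the amidotransferase subunits QRSL1 fell by 0.81 ± 0.10 (adjusted p = 2.68e-06) and GATB by 0.53 ± 0.10 (adjusted p = 0.000176), while GATC rose by 0.34 ± 0.06 (adjusted p = 5.91e-05, -0.01 under library size alone). Of 9 mitochondrial translation factors 2 were called higher and 3 lower (median -0.20), among them the elongation factor TUFM at 0.29 ± 0.06 (adjusted p = 0.000278, -0.07 under library size alone) and the release factor MTRF1 at -0.53 ± 0.10 (adjusted p = 0.000172). Of 4 cytosolic elongation factors tested 1 was called higher and 2 lower; EEF1B2 had -0.68 ± 0.09 (adjusted p = 5.37e-05) and EEF1D 0.40 ± 0.05 (adjusted p = 4.44e-06, 0.05 under library size alone), and EEF1G is listed at 0 in every library. Of 6 editing and related charging enzymes 2 were called higher and 1 lower, with TARS3 at 0.53 ± 0.09 (adjusted p = 6.74e-05, 0.17 under library size alone) and PSTK at 0.51 ± 0.12 (adjusted p = 0.00146, 0.15 under library size alone).

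Most of ATF4 and its other target genes were called lower in the average, beside 26.7% of all genes. ATF4 had 321 and 185 CPM with JQ1 and 519 and 382 CPM with DMSO in KMS-11, 107 and 117 CPM with JQ1 and 178 and 188 CPM with DMSO in KMS-12, and 402 and 509 CPM with JQ1 and 550 and 507 CPM with DMSO in RPMI8226. The groups were apart in KMS-11 and KMS-12 and overlapped in RPMI8226. ATF4 RNA fell by 0.58 ± 0.15 in the average (log2, adjusted p = 0.0103), and by line had -0.83 ± 0.25 in KMS-11 (adjusted p = 0.0330, from -1.28 to -0.49 with 1 library left out), -0.71 ± 0.26 in KMS-12 (adjusted p = 0.0528) and -0.21 ± 0.25 in RPMI8226 (adjusted p = 0.579). Of the 32 genes of the list, none of them a synthetase, 25 were called lower and 0 higher in the average, with a median of -1.10 (-0.95 over the 28 genes with reads in every group). By line 26 were called lower in KMS-11 (median -1.18), 20 in KMS-12 (median -1.44) and 5 in RPMI8226 (median -0.30), where 1 was higher. The KMS-11 count was 15 without DMSO replicate 1 and 17 without DMSO replicate 2, with a median of -1.83 without JQ1 replicate 1 and -0.83 without JQ1 replicate 2. The KMS-12 count was 13 without its JQ1 replicate 1. The RPMI8226 count was 14 and 15 without KMS-11 JQ1 replicate 1 and 2, and 3 without any 1 library of its own line. The members that moved include the pseudokinase gene TRIB3 (-3.24 ± 0.20, adjusted p = 8.14e-06), the leucine transporter gene SLC7A5 (-1.59 ± 0.13, adjusted p = 3.7e-06), CTH of cysteine synthesis (-1.54 ± 0.11, adjusted p = 1.44e-08) and CEBPG, an ATF4 partner (-1.01 ± 0.09, adjusted p = 4.79e-07). DDIT3 had -0.68 ± 0.17 (adjusted p = 0.0103). The asparagine synthetase gene ASNS, a textbook ATF4 target, had 0.42 ± 0.31 and was not called (adjusted p = 0.334); it was chosen after its values were seen. In KMS-11 with JQ1 all 31 of these genes that could be compared were lower in replicate 2 than in replicate 1, with a median log2 difference of -0.95, and in the same pair of libraries the cytosolic synthetases were lower in 15 of 19. In KMS-12 and RPMI8226 the JQ1 replicate 2 libraries were lower for 14.3% and 9.68% of the list. Among all genes the shares lower in JQ1 replicate 2 were 45.9% (KMS-11), 51.8% (KMS-12) and 50.8% (RPMI8226).

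**Figure D5:**
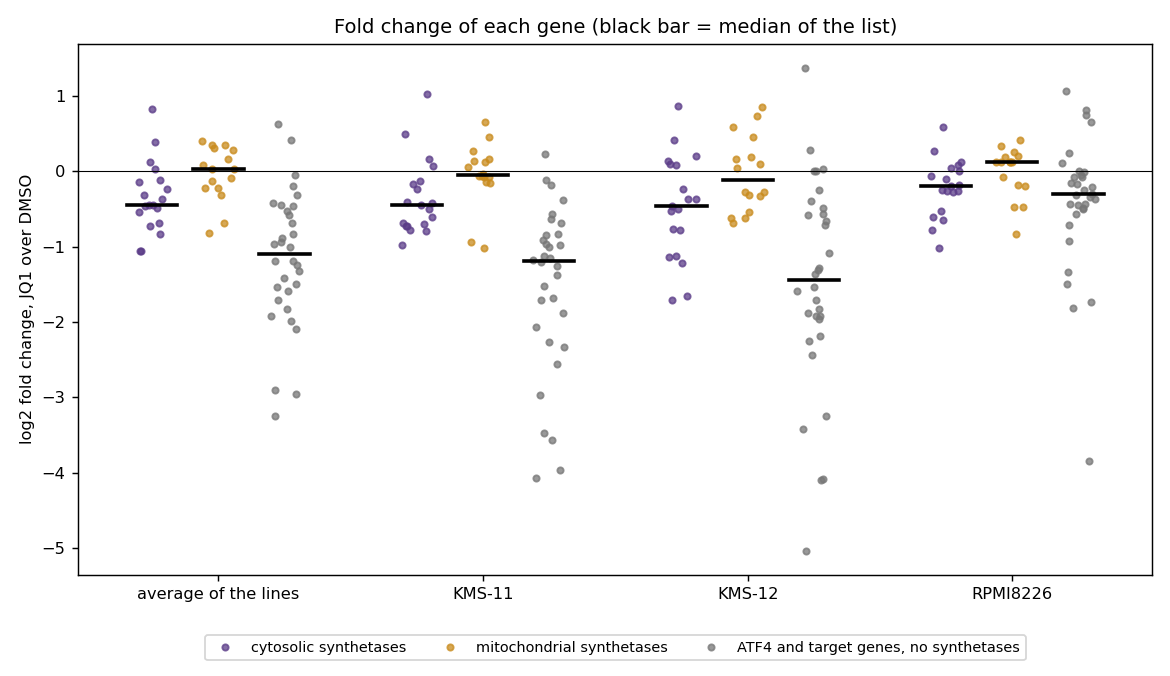
Log2 fold change of JQ1 over DMSO for each gene of 3 lists, the cytosolic synthetases, the mitochondrial synthetases and ATF4 with its other target genes, in the average of the lines and in each line, with a black bar at the median. The medians of the ATF4 list are -1.10, -1.18, -1.44 and -0.30, those of the cytosolic synthetases -0.45, -0.45, -0.46 and -0.19, and those of the mitochondrial synthetases lie between -0.11 and 0.12.

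Promoter sequence was then set beside these values. RefSeq promoter windows, from 250 bases before to 50 after the start site (GRCh38.p14), were found for 30 of the 35 members. The core TGATGNAA of the C/EBP-ATF response element, searched on both strands, occurs in any window of 8 of these 30 genes. Of all 35116 windows, counted singly, 3.62% hold it. A gene can have several windows, so the share of genes and the share of windows are in unlike units. The motifs were chosen after the values were seen, a match is a description of the sequence and not a measured site, and a window without a match says only that these letters are absent from it. Of the 8 genes 7 are cytosolic. The matches of 6 are shown, 12 bases to each side, to give the letters around the core. Of these 6 genes AARS1, CARS1, GARS1, NARS1 and YARS2 were called lower in the average. TARS1 was not called in the main edgeR fit, while DESeq2 called it lower (-0.24, adjusted p = 0.0391). EdgeR also called it lower with no filter beyond 1 read (-0.23, adjusted p = 0.000489) or a mean of at least 10 CPM (-0.29, adjusted p = 0.0406). Capitals mark the core on either strand.
AARS1 (chr16:70289674-70289705, minus strand): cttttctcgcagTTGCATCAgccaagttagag
CARS1 (chr11:3057406-3057437, minus strand): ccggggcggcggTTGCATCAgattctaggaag
GARS1 (chr7:30594833-30594864, plus strand): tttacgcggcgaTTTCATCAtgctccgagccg
NARS1 (chr18:57621803-57621834, minus strand): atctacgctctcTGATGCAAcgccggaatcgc
TARS1 (chr5:33440955-33440986, plus strand): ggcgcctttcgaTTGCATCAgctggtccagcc
YARS2 (chr12:32756075-32756106, minus strand): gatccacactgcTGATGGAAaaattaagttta

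Read along the gene strand as printed, the first base in capitals lay at -33 from the start site in GARS1, at -2 in CARS1, at 3 in TARS1 and at 15 in NARS1, and farther out in AARS1 (-187) and YARS2 (-197). In AARS1, CARS1, NARS1 and TARS1 the core reads TGATGCAA on 1 of the strands. Of the 7 cytosolic genes with a match 6 were called lower and 0 higher in the average (median log2 fold change -0.45). By line 4 were called lower in KMS-11 (median -0.72), 5 in KMS-12 (median -0.76) and 1 in RPMI8226 (median -0.18). Of the 9 cytosolic genes with a window and no match 3 were called lower and 2 higher, with a median of -0.12 in the average and medians by line of -0.13 (KMS-11), 0.10 (KMS-12) and 0.04 (RPMI8226). EPRS1, SARS1 and WARS1 are the genes without a match that fell. LARS1, VARS1 and YARS1, which also fell, had no window. The 3 of 9 without a match, and the 1 of 7 with a match in RPMI8226, are near the shares of all genes. The groups with and without a match were not tested against each other.

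The CACGTG E-box, which MYC with MAX is known to bind, occurs in the windows of IARS1, CARS2, EARS2 and MARS2, 4 of 30 genes. Of all windows, counted singly, 7.26% hold it. The averages of these 4 genes run from -1.05 for IARS1 to 0.40 for CARS2. The ETS motif CCGGAAGT occurs in 8 of 30 genes (CARS1, HARS1, NARS1, TARS1, WARS1, EARS2, HARS2 and PARS2). HARS1 and HARS2 are counted there for the same sites in their shared stretch. Of all windows, counted singly, 4.14% hold the motif. The 8 genes likewise had values on both sides of 0.

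MYC, a driver of protein synthesis genes and a known target of BET inhibition in myeloma, had 362 and 241 CPM with JQ1 and 478 and 359 CPM with DMSO in KMS-11, 205 and 192 CPM with JQ1 and 384 and 349 CPM with DMSO in KMS-12, and 345 and 312 CPM with JQ1 and 530 and 437 CPM with DMSO in RPMI8226. The groups overlapped in KMS-11 by 1 library and were apart in the other lines. MYC fell by 0.64 ± 0.11 in the average (log2, adjusted p = 0.000415), by 0.88 ± 0.19 in KMS-12 (adjusted p = 0.00247) and by 0.56 ± 0.19 in RPMI8226 (adjusted p = 0.0410, lost with any of 8 libraries left out), with -0.47 ± 0.19 in KMS-11 (adjusted p = 0.0679). Of the 12 genes of its network 5 were called higher and 4 lower in the average, beside 22.3% and 26.7% of all genes. MXD4, a MAX-binding repressor, had 1.06 ± 0.08 (adjusted p = 5.08e-08) and MXI1, another, -0.92 ± 0.08 (adjusted p = 6.69e-08). Of the 8 kinases and phosphatase regulators upstream of ATF4 translation 3 were called higher and 3 lower, which under library size alone became 0 higher and 7 lower. EIF2AK3, the kinase PERK, had 0.43 ± 0.08 in the average (adjusted p = 0.000575), made of 1.92 ± 0.15 in KMS-12, -0.04 ± 0.14 in KMS-11 and -0.59 ± 0.15 in RPMI8226. EIF2AK4 had -0.20 ± 0.07 in the average (adjusted p = 0.0206), a call lost without KMS-11 DMSO replicate 1, KMS-12 JQ1 replicate 2, KMS-12 DMSO replicate 2, RPMI8226 JQ1 replicate 1 or RPMI8226 DMSO replicate 2 (adjusted p up to 0.077). By line EIF2AK4 had 0.38 ± 0.11 in KMS-12 (-0.39 under library size alone, and not called without JQ1 replicate 1 or DMSO replicate 1) and -0.83 ± 0.12 in RPMI8226; this gene, the kinase GCN2, was named after its values were seen.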

How the data were processed

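RNA-seq libraries were made from total RNA with a stranded kit after ribosomal RNA removal, per the labels' protocols. The table the authors deposited holds raw read counts, whole numbers per Ensembl gene ID and library; for the aligner, counting program, annotation release and strand setting the sources used here state nothing. The submitters' processing notes name hg38, GRCh38.p13, DESeq2 and MACS2 without a role. Symbols were paired with 60437 of 60666 IDs, and positions and exon lengths came from GENCODE 29 (GRCh38), which holds 58420 of them. In R 4.3.3, edgeR 4.0.16 was used with filterByExpr (minimum count 10, minimum total 15), TMM scaling, robust dispersion and quasi-likelihood F tests in a single model of the 6 group means. Each standard error was taken as log2 fold change over the root of F. Benjamini-Hochberg adjustment ran over all 23493 genes tested (38.7% of IDs). Floors cover counting error only. The code was tested on simulated counts; simulated calls of a difference between lines held more false calls than the nominal share.

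The members and lists were chosen with earlier results of these data known. Members given in every library were the 6 called with the largest rise, the 6 called with the largest fall and the 6 whose response differed between lines at the lowest p; of each other list up to 4 genes with the smallest p were named, and MYC, ATF4, DDIT3 and HEXIM1 always. As alternatives the scaling was changed to RLE, to library size alone, or to TMM computed leaving out histone, immunoglobulin, mitochondrially encoded and 7SK/7SL RNAs, the filter to 1 read in all or to 10 CPM on average, and the tool to DESeq2 1.42.0 or limma-voom (limma 3.58.1). Replicate blocks were added, each library was left out (a lone library is then assumed to vary like the other groups), and library size without MALAT1 was chosen after seeing the data. The scaling and left-out-library values of the other lists were also computed after seeing the data. The promoter sequences of some members are not reported here.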

Additional observations from a re-analysis of the deposited data

Results flagged for a closer look

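Responses to JQ1 that differed between the 3 lines by the F test of any difference (edgeR, Benjamini-Hochberg adjusted p, all genes tested) are listed here with that p. Among the cytosolic synthetases they were LARS1 (adjusted p = 6.31e-05), IARS1 (0.00045), FARSB (0.0112), HARS1 (0.0316) and YARS1 (0.0416). Among the mitochondrial synthetases they were TARS2 (adjusted p = 0.0146), CARS2 (0.0206), MARS2 (0.0213), RARS2 (0.0296) and IARS2 (0.0358). With each library left out in turn the call was lost in at least 1 case for all of these other than LARS1 and IARS1; the highest p was 0.131 for HARS1, without RPMI8226 DMSO replicate 2, 0.169 for YARS1, without KMS-11 DMSO replicate 2, 0.165 for RARS2, without KMS-12 DMSO replicate 1, and 0.132 for IARS2, without KMS-12 JQ1 replicate 2.

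Among genes named beside the synthetases the responses differed between lines for the scaffolds AIMP1 (adjusted p = 0.00853) and EEF1E1 (0.00452), for MTFMT (0.0167), EEF1D (0.000308), MTIF2 (0.000629) and DTD1 (0.00965), and for the kinases EIF2AK3 (1.52e-06) and EIF2AK1 (0.0462). They also differed for the ATF4 targets CEBPG (adjusted p = 0.000462), SLC7A5 (0.000282) and TRIB3 (0.00556), and for MXD4 (0.0127), MXI1 (0.0285), MLXIP (6.93e-06), MXD1 (0.000265) and HEXIM1 (0.00776). EIF2AK3 was called higher in KMS-12 (log2 fold change 1.92, and 1.15 under library size alone) and lower in RPMI8226 (-0.59). EIF2AK4 also differed between lines (adjusted p = 8.41e-05).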

How the results depend on the processing

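Of 4490 values of single members under 22 alternatives, 253 lost a call, 182 gained one and 28 turned their sign with a call on 1 side or both; the cause was not tested. Of the others 3963 kept their side of the threshold and any sign, and 64 uncalled values changed sign, 30 of them with 1 library left out. All 28 came from library size alone or library size without MALAT1, which lowered the median of all genes. With library size alone the average gave FARSA -0.32, QARS1 -0.23, AARS2 -0.33, EARS2 -0.33, NARS2 -0.20 and WARS2 -0.07. KMS-12 gave FARSA -0.63, KARS1 -0.69, QARS1 -0.67, RARS1 -0.36, CARS2 -0.32, EARS2 -0.67, HARS2 -0.61, NARS2 -0.58, PARS2 -0.73, RARS2 -0.04 and WARS2 -0.18. RPMI8226 minus KMS-12 gave HARS1 0.46, CARS2 0.41 and RARS2 0.20. Without MALAT1 the average gave FARSA -0.15, and KMS-12 gave FARSA -0.33, KARS1 -0.39, QARS1 -0.37, RARS1 -0.06, CARS2 -0.02, EARS2 -0.37 and HARS2 -0.31. With library size alone the counts were 1 cytosolic higher, 0 mitochondrial higher and 10 mitochondrial lower in the average; 1, 1 and 6 in KMS-11; 0 cytosolic higher, 17 cytosolic lower, 0 mitochondrial higher and 13 mitochondrial lower in KMS-12; 1 cytosolic higher in RPMI8226; and 17 cytosolic, 11 mitochondrial and 11281 of all genes for any difference between lines. All-gene counts then were 7647 for KMS-12 minus KMS-11 and 10247 for RPMI8226 minus KMS-12. Without MALAT1 they were 1 mitochondrial higher and 7 lower in the average, 1 cytosolic higher, 16 lower, 0 mitochondrial higher and 10 lower in KMS-12, and 9 cytosolic and 8 mitochondrial for any difference. A mean of at least 10 CPM left fewer genes tested and 7206 genes called (average), 5979 (KMS-11), 6656 (KMS-12) and 4874 (RPMI8226), with 1 mitochondrial lower in KMS-11 (also with DESeq2 and limma-voom), 2 mitochondrial higher in KMS-12 and 1 cytosolic higher in RPMI8226 (also with RLE, no filter and DESeq2). Any difference gave 9 cytosolic without a filter, 8 with DESeq2 and 8 with the replicate block within line. Leaving out 1 library gave 5 to 12 cytosolic lower and 1 to 2 mitochondrial lower in KMS-11 and 3 to 5 mitochondrial lower in KMS-12. RPMI8226 had 1 to 2 cytosolic higher, 2 to 7 cytosolic lower, 0 to 1 mitochondrial higher and 1 to 2 mitochondrial lower. It gave 2 to 11 cytosolic and 1 to 6 mitochondrial for any difference, and 1661 to 3155 genes for RPMI8226 minus KMS-11, lowest without RPMI8226 DMSO replicate 2.

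Replicate numbers were not taken to pair libraries, because the labels do not say that they mark a shared culture or batch. Same-numbered JQ1 and DMSO libraries had deviations from their group means correlated at 0.153 (KMS-11), 0.032 (KMS-12) and 0.18 (RPMI8226). Between groups of different lines the correlations ran from -0.054 to 0.097, below the KMS-11 and RPMI8226 values. Whether the numbers mark pairs was not tested. The additive replicate block called 11 cytosolic members lower and 5 mitochondrial members lower in the average, and the block within line 12 and 5. The block within line also called WARS1 in KMS-11 (-0.59, adjusted p = 0.000106) and for any difference between lines (adjusted p = 8.7e-06). Depth limits VARS2 (20 to 106 reads), PARS2 (33 to 430) and SARS2 (47 to 157), the members with the lowest minimum counts.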
